A study of Sus scrofa with 2 samples.

Results

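The genes described here are those of DNA replication and mitosis in 2 organs, brain and liver, of the Rongchang pig (Sus scrofa, a Chinese domestic breed). They are a list of 49 genes in 5 groups, namely licensing of origins, DNA synthesis, mitosis, the G1 cyclins with CDK2, and inhibitors of cyclin-dependent kinases. A gene was taken from the deposited table by its symbol, or by its protein's name where the symbol column held only a locus number, with TOP2A found by a synonym and CCND1 by its gene number. Its rows were then summed. In this way 40 of the 49 genes were found, among 21435 genes in the whole table. The other 9 (MCM2, MCM6, CDT1, TK1, NUSAP1, TPX2, BIRC5, PRC1 and CDKN1C) matched no row by name and were not analysed here under those names. The rows named MCM7 and MKI67 count among the 40, although their transcript records belong to MCM2 and NIFK, as described below. RNA-seq was done on 1 brain library and 1 liver library, each from frozen tissue of the same breed. No treatment is named in the labels, nor the sex or age of the animals, nor which region of the brain was taken, nor whether a single animal gave both pieces.

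A cell that divides first licenses its replication origins by loading the MCM helicase on them in G1. It then copies its DNA in S phase and separates the copies in mitosis. Most of the genes involved are transcribed mainly in cycling cells, those of S phase largely through E2F factors and those of mitosis through the MuvB and FOXM1 proteins. Mature neurons and resting hepatocytes are outside the cycle, while progenitors, blood precursors and growing liver cells are in it. A bulk library does not separate fewer cells of a type from less RNA per cell, so every difference below may be either.

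Total counts were 23796843 in brain and 31724498 in liver. Values are given as raw counts or as CPM, counts per 1000000 scaled by the TMM method, in which 1 CPM is 34.9 counts in brain and 21.6 counts in liver. The log2 ratio given for a gene divides its brain CPM by its liver CPM after 1 is added to each, so that a negative value is higher in liver. On that scale, a gene past 4-fold is called higher in that tissue. Each tissue has 1 library, which leaves no test and no replicate check, and 95% intervals of folds, which come from CPM without the added 1, cover counting error only. All 7 neuron markers with a row were called higher in brain and all 10 hepatocyte markers were called higher in liver, so the 2 libraries carry the markers of their labels. The sample titles give both libraries the same lane and barcode. The brain counts of ALB, the albumin gene of hepatocytes, were 0.0262% of its liver counts, while the lowest such percentage among the replication and mitosis genes was 5.46%, that of RRM2.

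Genes of replication and mitosis were lower in brain than in liver almost throughout. Of the 40 genes, 21 were called higher in liver, against 11.3% of all 15565 genes measured at 1 CPM or more in a library. None, 0 of 40, was called higher in brain, against 14.6% of all genes. All 40 reached 1 CPM in a library, and the lowest count behind any value was 10, that of CCND2 in liver. The median log2 ratio was -2.08, against 0.02 over all genes. The log2 ratio of 38 genes was negative and below the median of all genes, a side that holds 50% of all genes by definition, and 32 lay among the lowest 25% of all ratios. The exceptions were CCND2, a D-type cyclin, and CDKN1B, which encodes the kinase inhibitor p27. Summed over the 40 genes, the level was 372 CPM in brain and 1386 CPM in liver, 3.72-fold higher in liver (3.65 to 3.80).

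**Figure D1:**
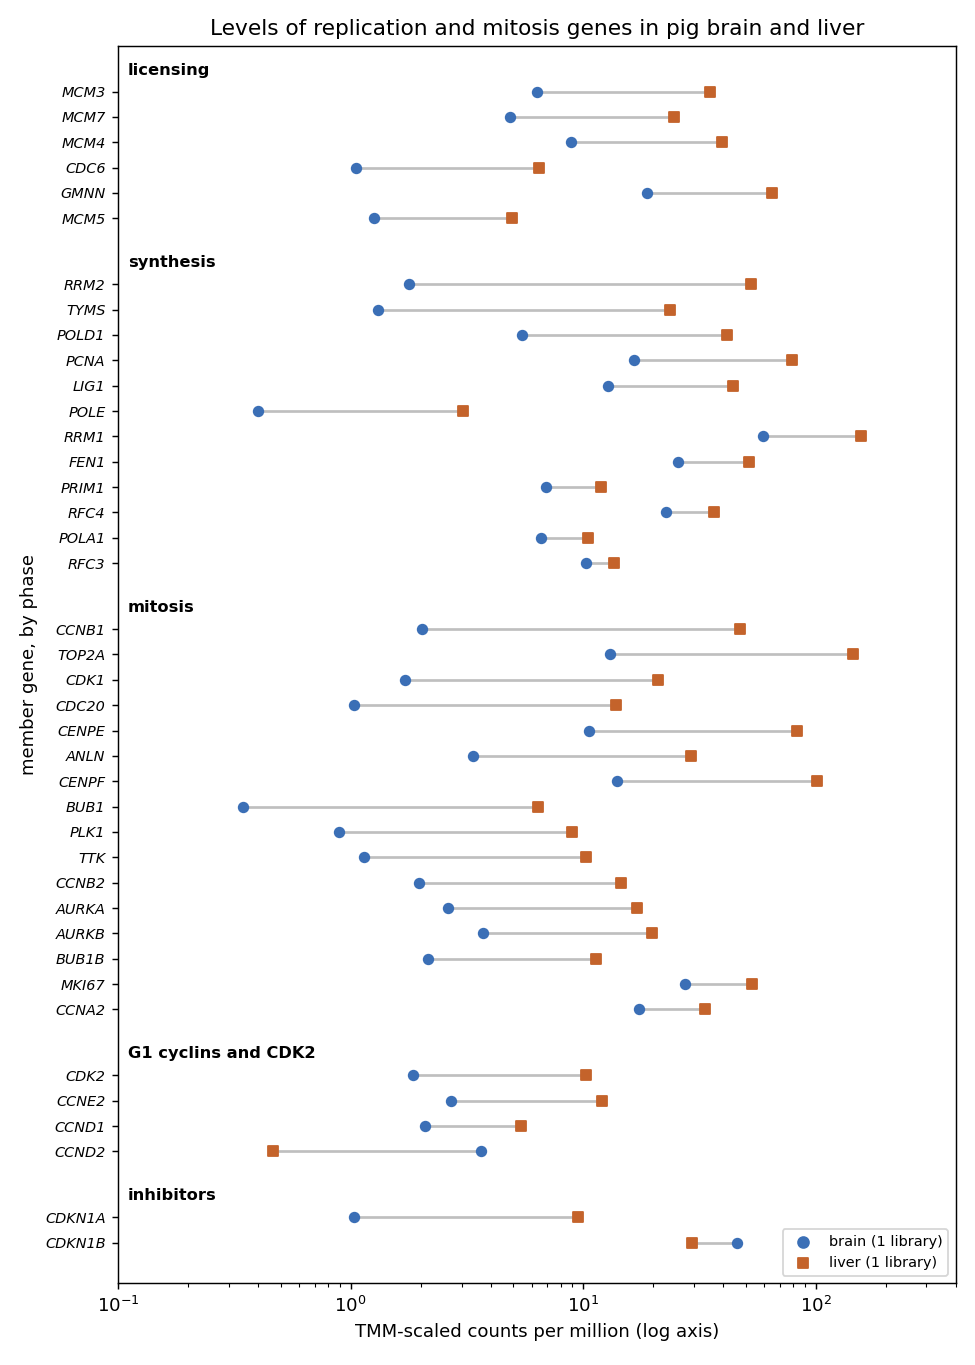
TMM-scaled CPM (log axis) of the 40 genes with a row, ordered by group, with brain as circles and liver as squares, 1 library each. The liver square lies to the right of the brain circle for 38 genes and to the left for CCND2 and CDKN1B. The rows labelled MCM7 and MKI67 carry those names in the deposited table, but their neighbours lie near other genes in the reference table.

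The scaling of the libraries sets how many of these genes pass 4-fold. With plain library size the median of all genes moved by 0.96 on the log2 scale, to 0.98. Then 6 of the 40 were called higher in liver, against 6.03% of all genes, and 1, CCND2, was called higher in brain, against 24.1%. The 6 were RRM2, TYMS, TOP2A, CDK1, CCNB1 and CDC20, which were called under all 4 scalings tried. A scaling shifts all genes by nearly the same amount, so the median of the 40 relative to that of all genes, -2.10, is nearly the same under each by construction. In raw counts, 35 of the 40 genes had more counts in liver and 5 had more in brain (RFC3, RFC4, POLA1, CCND2 and CDKN1B).

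**Figure D2:**
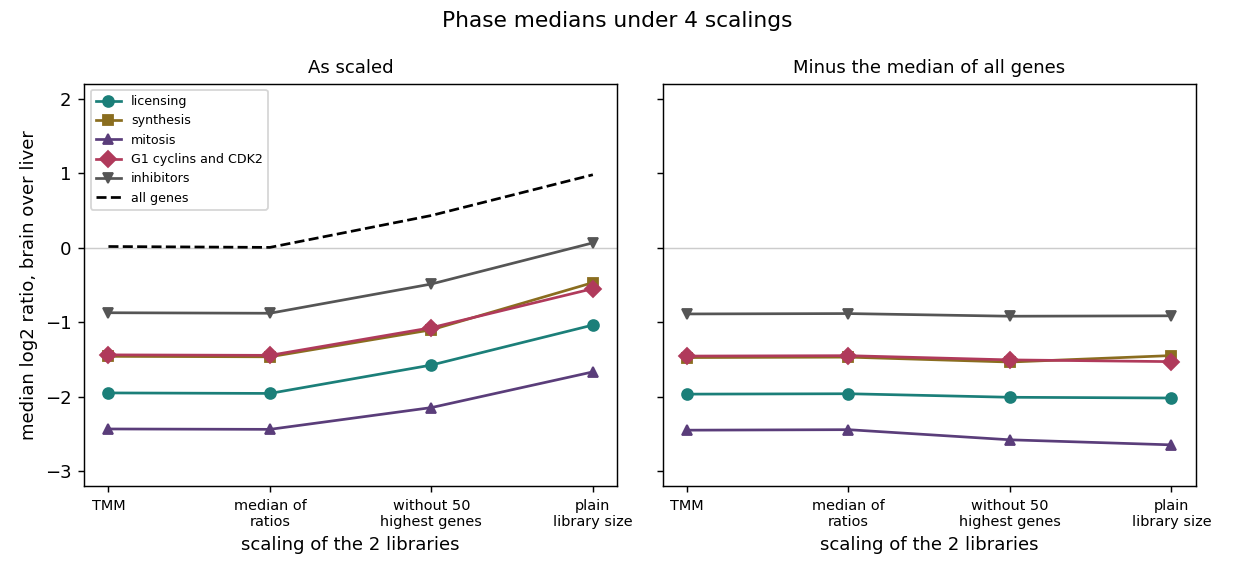
Median log2 ratio, brain over liver, of each group under 4 scalings of the libraries, as scaled (left panel) and after the median of all genes was subtracted (right panel). As scaled, every line climbs with plain library size, where all genes reach 0.98; subtraction takes this common shift out by construction, and leaves mitosis lowest and inhibitors highest.

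The groups did not lie equally far from the rest of the genome. The 16 mitosis genes had the lowest median log2 ratio, -2.43, with 13 called higher in liver. The 6 licensing genes followed at -1.95 with 3 called, the 12 synthesis genes at -1.46 with 4, the 4 G1 genes at -1.44 with 0, and the 2 inhibitors at -0.87 with 1. These calls stand beside the 11.3% of all genes called higher in liver. With plain library size the calls in liver were 4 in mitosis, 0 in licensing, 2 in synthesis and 0 among inhibitors, against 6.03% of all genes. Without the 50 highest genes they were 11, 0, 3 and 1, in the same order, and the share of all genes called was not computed there. Summed levels kept mitosis first. Its genes held 103 CPM in brain and 617 CPM in liver, 5.97-fold higher in liver (5.75 to 6.20). Licensing genes held 41.3 CPM in brain and 176 CPM in liver, 4.26-fold higher in liver (4.004 to 4.525). Synthesis genes held 170 CPM in brain and 526 CPM in liver, 3.09-fold higher in liver (2.997 to 3.191). These intervals do not overlap, but they cover counting error alone. The spread between the genes of a group is not in them, so they do not rank the groups. Single rows weigh heavily in the sums. GMNN held 45.8% of the licensing sum in brain and 37% in liver, and RRM1 held 35.1% and 29.9% of that of synthesis. TOP2A held 23.5% of the mitosis sum in liver. The row named MKI67, for which a reservation is given below, held 26.5% of the mitosis sum in brain. At 1.94-fold higher in liver, the row named MKI67 lowered the fold of the mitosis sum. No group sum was computed without its heaviest row. The median of mitosis was 0.97 below that of synthesis (a difference of -0.97), and between -1.43 and -0.41 with the other settings tried. With 5 instead of 1 added to each CPM, the median of licensing (-1.57) was below that of mitosis (-1.52).

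**Figure D3:**
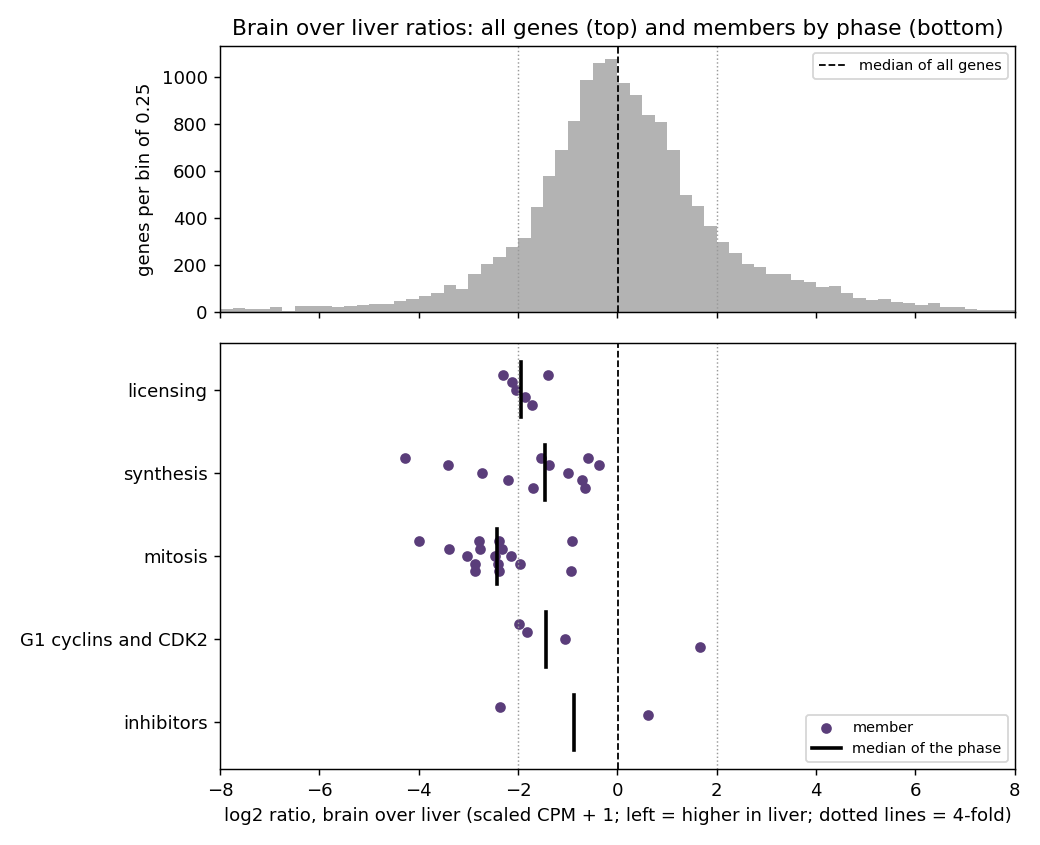
Log2 ratio, brain over liver, of all genes (top, a histogram in bins of 0.25) and of each of the 40 genes by group (bottom, 1 point per gene, with a bar at the group's median). Mitosis genes lie around -2.43 and synthesis genes spread from -4.27 to -0.37; the points to the right of the median of all genes are CCND2 and CDKN1B.

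In licensing, all 6 genes with a row lay in a narrow band, with log2 ratios from -2.30 to -1.40. MCM3, a subunit of the replicative helicase, had 222 counts in brain and 760 in liver, which is 6.35 and 35.2 CPM, 5.53-fold higher in liver (4.76 to 6.46). MCM4, another subunit, had 309 counts in brain and 855 in liver, 4.47-fold higher in liver (3.92 to 5.11). MCM5, a subunit found by its protein's name, had only 44 counts in brain and 107 in liver, and its log2 ratio of -1.40 was under the 4-fold rule. The helicase subunits thus had ratios close to each other, as far as they could be measured.

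CDC6, which helps to load the helicase, had 37 counts in brain and 139 in liver. It was 6.07-fold higher in liver (4.20 to 8.98), but with 1 added to its low CPM the log2 ratio was -1.85, short of a call. GMNN encodes geminin, which keeps origins from being licensed again after they fire. It was much better measured, with 660 counts in brain and 1403 in liver, and was 3.44-fold higher in liver (3.13 to 3.78).

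The row that carries the name MCM7 needs a reservation. It had 170 counts in brain and 532 in liver, a log2 ratio of -2.13. Its transcript record belongs to MCM2 in the reference table, and 6 of 6 of its neighbours in the deposited table (PODXL2, ABTB1, MGLL, PLXNA1, TXNRD3 and CHCHD6) lie near MCM2 there, with 0 near MCM7. Either gene is a helicase subunit, so the row counts in licensing under both names, but its values should not be read as those of MCM7.

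DNA synthesis showed the widest spread, from the gene farthest on the liver side of all 40 to genes with almost equal counts in the 2 libraries. RRM2 and TYMS, of deoxynucleotide supply, had the 2 lowest log2 ratios of the group. RRM2, the small subunit of ribonucleotide reductase and the one made chiefly in S phase, had 62 counts in brain and 1135 in liver, or 1.77 and 52.5 CPM. It was 29.6-fold higher in liver (22.9 to 38.9), a log2 ratio of -4.27, which stood at percentile 2.94 among all genes. RRM1, the large subunit, had 2086 counts in brain and 3394 in liver and was 2.63-fold higher in liver (2.49 to 2.78). The log2 ratios of the 2 subunits thus differed by -2.89 (RRM2 minus RRM1). TYMS, which makes thymidylate, had 46 counts in brain and 513 in liver, 18.03-fold higher in liver (13.3 to 24.9). Both of its rows leaned the same way, with 4 and 42 counts in brain and 88 and 425 in liver.

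Among the replication polymerases, POLD1, the catalytic subunit of polymerase delta, had 191 counts in brain and 902 in liver, 7.63-fold higher in liver (6.52 to 8.97). PCNA, the sliding clamp that holds the polymerase on DNA, had 578 counts in brain and 1715 in liver, 4.80-fold higher in liver (4.36 to 5.28). POLE, of polymerase epsilon, had 14 counts in brain and 66 in liver. Its fold of 7.62 has a wide interval (4.24 to 14.7), and its log2 ratio of -1.53 was not called. LIG1, the ligase that joins Okazaki fragments, had 446 counts in brain and 952 in liver, 3.45-fold higher in liver (3.08 to 3.87).

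The remaining 5 synthesis genes had similar counts in the 2 libraries, and the sign of their ratios depends on the scaling. They are the clamp loader subunits RFC3 and RFC4, POLA1 and PRIM1 of the polymerase alpha and primase complex, and FEN1, the flap endonuclease. RFC3 had 360 counts in brain and 294 in liver, a log2 ratio of -0.37, which became 0.65 when scaled by library size alone and 0.05 when the 50 highest genes were left out. RFC4 had 792 counts in brain and 787 in liver (-0.66, and 0.41 with plain library size), and POLA1 had 231 in brain and 228 in liver (-0.60, and 0.39). PRIM1 had 241 counts in brain and 258 in liver (-0.71, and 0.29), and FEN1 had 895 in brain and 1123 in liver (-0.99, and 0.09). Each lay below the median of all genes.

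For 3 of these genes the sum joins rows that differ. POLA1 had 106 counts in brain and 174 in liver in the row with its symbol, but 125 in brain and 54 in liver in the row named by protein. PRIM1 had 97 in brain and 61 in liver under its symbol, and 144 in brain and 197 in liver under its protein's name. RFC4 had 520 in brain and 421 in liver under its symbol, and 272 in brain and 366 in liver under its protein's name. Whether such rows are parts of 1 gene or separate copies was not tested.

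The genes that drive entry into mitosis and exit from it were called higher in liver, with CCNB1 lowest in log2 ratio among all mitosis genes. CCNB1, the cyclin that activates CDK1 at entry, had 71 counts in brain and 1021 in liver, which is 2.03 and 47.2 CPM. It was 23.2-fold higher in liver (18.3 to 30.0), a log2 ratio of -3.99. CDK1, its kinase, had 60 counts in brain and 456 in liver, 12.3-fold higher in liver (9.37 to 16.4). CCNB2, the other B-type cyclin, had 69 counts in brain and 316 in liver, 7.40-fold higher in liver (5.69 to 9.75). CDC20, which directs the anaphase-promoting complex to its targets, had 36 counts in brain and 300 in liver, 13.5-fold higher in liver (9.51 to 19.6). CCNB2, at a log2 ratio of -2.39, lay near the median of the group.

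TOP2A, the topoisomerase that untangles sister chromatids, had 454 counts in brain and 3139 in liver, or 13.0 and 145 CPM, 11.2-fold higher in liver (10.1 to 12.4). Its row was found by a synonym, and its neighbours in the table are those of TOP2A in the reference. CENPF and CENPE, large kinetochore proteins, were also measured with many counts. CENPF had 490 counts in brain and 2198 in liver, 7.25-fold higher in liver (6.57 to 8.01), and CENPE had 369 in brain and 1806 in liver, 7.91-fold higher in liver (7.07 to 8.87). ANLN, or anillin, which organises the contractile ring of cytokinesis, had 117 counts in brain and 629 in liver, 8.69-fold higher in liver (7.12 to 10.7).

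The mitotic kinases had few counts in brain. AURKA, which acts at the centrosome and spindle, had 92 counts in brain and 369 in liver, a log2 ratio of -2.31, and AURKB, of the chromosomal passenger complex, had 130 in brain and 427 in liver, -2.14. PLK1, which acts from entry to cytokinesis, had 31 counts in brain and 194 in liver, -2.40. The checkpoint kinase TTK had 40 counts in brain and 222 in liver, -2.39. All 4 were called.

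BUB1, a checkpoint kinase found by its protein's name, had 12 counts in brain and 138 in liver. Its fold of 18.6 is loosely measured (10.3 to 36.9), and its log2 ratio was -2.46. BUB1B, its relative in the mitotic checkpoint complex, had 75 counts in brain and 245 in liver and just missed the call at -1.97. Its 2 rows differed in degree, with 2 counts in brain and 78 in liver in the one, and 73 in brain and 167 in liver in the other.

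CCNA2 and the row named MKI67 had the smallest differences of the mitosis group. CCNA2, the cyclin of S phase and early mitosis, had 605 counts in brain and 721 in liver, 1.93-fold higher in liver (1.73 to 2.15), with a log2 ratio of -0.91 that became 0.16 with plain library size. Its log2 ratio differed from that of CCNB1 by -3.08 (CCNB1 minus CCNA2). EXOSC9, a subunit of the RNA exosome, is among its nearest neighbours in the table; the strand setting of the counting is not given in the sources used here, and whether the 2 genes share reads was not tested.

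The row named MKI67, after the Ki-67 antigen used as a marker of cycling cells, had 958 counts in brain and 1149 in liver. It was 1.94-fold higher in liver (1.78 to 2.11). The log2 ratio of the row was -0.93, or 0.15 if scaled by library size alone. Its transcript record belongs in the reference table to NIFK, a nucleolar protein that binds Ki-67. Of its 6 neighbours, 6 lie near NIFK there and 0 near MKI67. The row should therefore not be read as a level of Ki-67. It held 26.5% of the brain CPM of the mitosis group, and without it the group's median was -2.46. Of the 48 rows behind the 40 genes, 42 had neighbours that could be looked up. Of these, 39 had at least 1 neighbour near the gene they are named after. The remaining exception is an added row of CCNB2, with 9 counts in brain and 1 in liver.

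The G1 cyclins lay on both sides. CCND2 was the gene farthest on the brain side, with 127 counts in brain and 10 in liver, or 3.64 and 0.463 CPM, which gives a brain excess of 7.86-fold (4.13 to 16.8). At a log2 ratio of 1.66 it was not called, but plain library size put it at 2.27, past the call. CCND1, another D-type cyclin, lay on the other side, with 73 counts in brain and 117 in liver, 2.59-fold higher in liver (1.92 to 3.52). Its row was found by gene number, since the deposited table calls it a hypothetical protein, but 5 of its 6 neighbours lie near CCND1 in the reference. The log2 ratios of the 2 D-type cyclins differed by -2.72 (CCND1 minus CCND2).

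CCNE2, the E-type cyclin that works at the start of S phase, had 94 counts in brain and 260 in liver, 4.47-fold higher in liver (3.52 to 5.72). CDK2, the kinase of E-type and A-type cyclins, had 65 counts in brain and 222 in liver, 5.52-fold higher in liver (4.17 to 7.40). With 1 added to their CPM, the log2 ratios were -1.82 for CCNE2 and -1.98 for CDK2, so neither was called. As a group, the 4 genes held 10.3 CPM in brain and 28.2 CPM in liver, 2.74-fold higher in liver (2.40 to 3.13).

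The 2 inhibitors with a row, both of the Cip/Kip family that binds cyclin and kinase together, went opposite ways. CDKN1A, which encodes p21 and is induced by p53, had 36 counts in brain and 205 in liver. It was 9.21-fold higher in liver (6.44 to 13.5) and was called, at a log2 ratio of -2.37. CDKN1B, which encodes the p27 protein of resting cells, had 1609 counts in brain and 638 in liver. Its excess in brain was 1.56-fold (1.42 to 1.71), a log2 ratio of 0.62 that became 1.70 with plain library size. CDKN1B thus held 97.8% of the brain CPM of the pair and 75.7% of the liver CPM. The pair's sum was 47.1 CPM in brain and 39.0 CPM in liver, the only group sum that was higher in brain, by 1.21-fold (1.11 to 1.31).

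Genes of the same pathways outside the list were set beside it, as 8 lists with 178 genes. Of these, 155 passed the filter, 33 were called higher in liver and 1 in brain, against 11.3% and 14.6% of all genes, and the median log2 ratio was -0.99. With plain library size 9 were called higher in liver and 4 in brain, against 6.03% and 24.1% of all genes, and the median was -0.081, where that of all genes was 0.98. Their median was nearer to that of all genes than the median of the 40, and it varied with the role. Genes of the spindle, condensin and cytokinesis lay lowest, with 19 of 34 called higher in liver and a median of -2.05. KIF20B, a kinesin of cytokinesis, had 395 counts in brain and 2022 in liver (-2.94), and SMC4, a condensin subunit, had 1956 in brain and 4184 in liver (-1.77). CIT, or citron kinase, and CKAP5, a microtubule polymerase, went the other way, with log2 ratios of 1.74 and 1.20 that plain library size moved past the call, to 2.80 and 2.30.

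Among 21 kinetochore and spindle checkpoint genes, 5 were called higher in liver (median -1.33), against 11.3% of all genes. Besides NUF2 they were CENPA (-3.22), the histone of centromeres, NDC80 (-2.99), SPC25 (-2.91) and KNL1 (-2.02), chosen after their values were seen. NUF2, of the complex that binds microtubules, had 288 counts in brain and 1083 in liver (-2.47), while SKA2 and SKA3, of the complex that keeps that hold, were at -0.30 and -0.37, which plain library size turned to 0.78 and 0.70, and leaving out the 50 highest genes to 0.14 and 0.07. BUB3, a checkpoint protein, was at -0.68, or 0.39 by plain library size. Of 15 other cyclins and kinases, 2 were called higher in liver (median -1.05), near the 11.3% of all genes. Only 1 was called in brain, against 14.6% of all genes. CKS2, a small subunit that binds the kinases, was at -3.17 and its relative CKS1B at -1.84. The other liver call, CCNF (-2.22), was chosen after its value was seen. CDK4, the partner of D-type cyclins, was at -1.76. The brain call was CDK5, a kinase known from neurons rather than from the cycle, with 1271 counts in brain and 152 in liver (2.22).

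The lists of upstream steps lay closer to the median of all genes than the spindle and kinetochore lists, but mostly below it. Of 18 other genes of origin licensing and firing, 2 were called higher in liver (median -0.85), a share near the 11.3% of all genes. They were CDC45 (-2.11) and GINS4 (-2.20), partners of the MCM helicase, chosen after their values were seen. Of the 18, 17 lay below the median of all genes, and 8 were among the lowest 25% of all ratios. The 6 licensing genes of the main list, also upstream, had a median of -1.95. ORC3 and ORC4, subunits of the origin recognition complex, were at -0.10 and 0.04. TOPBP1 and WDHD1, which act when origins fire, were at -0.26 and -0.23. Of 30 other DNA synthesis genes, 3 were called higher in liver (median -0.50), again near the 11.3% of all genes. They were POLD4 (-2.63), ASF1B (-2.37) and TIMELESS (-2.93), chosen after their values were seen, and 0 of 6 neighbours of the TIMELESS row lie near that gene in the reference table. Of the 30, 22 lay below the median of all genes, and 9 were among the lowest 25% of all ratios. DUT, which removes dUTP, was at -1.13, POLE3 at -0.63, and the topoisomerases TOP1 and TOP2B at 0.11 and 0.66. With plain library size ORC3, TOPBP1, WDHD1 and POLE3 were on the brain side, at 0.93, 0.83, 0.86 and 0.46, and so were ORC3, TOPBP1 and WDHD1 if the 50 highest genes were left out, at 0.32, 0.19 and 0.22.

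Of 21 E2F, RB and DREAM regulators, 2 were called higher in liver (median -0.71), also near the 11.3% of all genes. They were E2F8 (-2.74), a repressor of the E2F family, and FOXM1 (-2.08), which drives mitotic genes, both chosen after their values were seen. Of the 21, 16 lay below the median of all genes, and 5 were among the lowest 25% of all ratios. E2F1, an activator of S phase genes, was at -1.57, E2F4 at -0.91 and RBL2 at -0.74, of which E2F4 and RBL2 were at 0.16 and 0.34 with plain library size. LIN52, a MuvB subunit, was at 0.91. Of 14 DNA repair and checkpoint genes, 0 were called in either direction (median -0.85), against 11.3% of all genes in liver and 14.6% in brain. Of the 14, 11 lay below the median of all genes. CHEK1, a checkpoint kinase that also guards normal S phase, was at -1.93 and ATM, a kinase of DNA breaks, at 0.26. The 2 other inhibitors that passed, CDKN2C and CDKN3, were at -1.10 and -1.55.

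**Figure D4:**
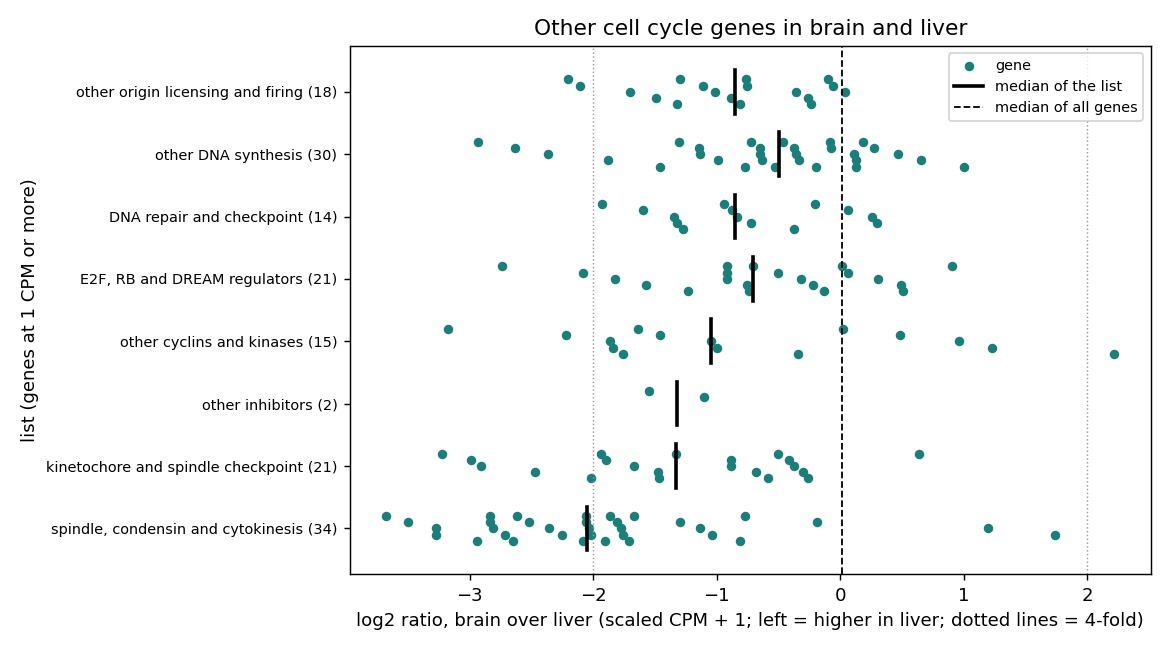
Log2 ratio, brain over liver, of genes outside the 49, in 8 lists with the number of genes at 1 CPM or more in a library after each name; points are genes and bars are list medians. The list of spindle, condensin and cytokinesis genes lies lowest, at a median of -2.05, and DNA synthesis highest, at -0.50, while the point farthest right is CDK5 at 2.22.

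Markers of other cell types that can divide also differed between the tissues. Calls among them stand beside the 11.3% of all genes called higher in liver and the 14.6% called higher in brain. Of 12 erythroid markers that passed, 6 were called higher in liver, and the summed level of the list was 108 CPM in brain and 503 CPM in liver. TFRC, the transferrin receptor, was at -3.70, HEMGN at -2.70, and the globin HBB at -1.61, and KLF1, an erythroid transcription factor, had 0 counts in brain. The other haematopoietic markers had a summed level of 58.4 CPM in brain and 507 CPM in liver, with 2 of 9 called higher in liver (PTPRC at -2.55 and CD14 at -5.87) and 1 in brain (KIT at 2.37). CD14 alone held 6.47 CPM of the sum in brain and 434 CPM in liver. CD34, of blood precursors and endothelium, lay on the brain side at 1.59, and so did ITGAM, chosen after its value was seen, at 0.81. CD79B, of B cells, had 0 counts in brain. Of 6 markers of fetal liver that passed, 4 were called higher in liver. The list had a sum of 27.5 CPM in brain and 27348 CPM in liver. AFP, the fetal relative of albumin, held 3.72 CPM of it in brain and 26034 CPM in liver. IGF2 and GPC3 were also called, at log2 ratios of -6.44 and -6.48. IGF2BP3 was not called, with 311 counts in brain and 203 in liver. Its log2 ratio of -0.07 became 0.93 with plain library size. DLK1, chosen after its values were seen, had 1 count in brain and 2 in liver, under the filter.

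Most markers of neural progenitors and oligodendrocyte precursors were on the brain side. For both lists, the share to set beside calls in brain is the 14.6% of all genes. Of 10 neural progenitor markers, 7 were called higher in brain, and the list had a sum of 765 CPM in brain and 111 CPM in liver, with SOX2 at 5.14 and FABP7 at 8.23. HES1, chosen after its value was seen, had 255 counts in brain and 262 in liver, a log2 ratio of -0.66 that plain library size turned to 0.34. Of 7 markers of oligodendrocyte precursors, 4 were called higher in brain, with sums of 448 CPM in brain and 13.5 CPM in liver. OLIG2 and BCAN, a transcription factor and a matrix protein of that lineage, had 0 counts in liver. Both were called, as were OLIG1 and PTPRZ1, at log2 ratios of 3.18 and 5.41. PDGFRA was not called, with 588 counts in brain and 199 in liver (0.80). CSPG4 (0.56) and SOX10 (1.24), chosen after their values were seen, were not called either. Many of these markers are also made by cells that do not divide. The part of any of these cells in the levels of the replication and mitosis genes was not tested.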

How the data were processed

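RNA-seq of 1 brain and 1 liver library was deposited as raw counts per gene, whole numbers in 1 table made by the authors. The aligner was TopHat and the build Sscrofa10.2 (susScr3), per the submitters' processing notes. Its version, the counting program and any strand setting were not given in the sources used here. Rows were named by symbol, gene number, transcript record or synonym from RefSeq's gene table for assembly Sscrofa11.1, used for names and gene order alone, and 6994 of 21817 rows stayed unnamed (10.3% of brain and 6.33% of liver counts) but entered all totals. For each row, up to 6 named neighbours in the deposited table were looked up. A neighbour counted as near a gene if it lay within 10 genes of it in the RefSeq table. A row counted as beside its gene if at least 1 neighbour was near. No other column of per-sample values was present.

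TMM factors (1.47 for brain, 0.681 for liver) were computed with edgeR 4.0.16 in R 4.3.3, which was used for scaling alone. Ratios used a pseudocount of 1 and a filter at 1 CPM in at least 1 library. Intervals are exact conditional binomial ones, and 3 counts, the most that a count of 0 allows, equal 0.0859 CPM in brain and 0.139 CPM in liver. PCR reads are not independent molecules, so intervals cover counting error only. All values other than the counts were computed with Python 3.11.15. The procedure was run on simulated libraries that shared 1 composition apart from a set of altered genes. That run does not test the scaling between tissues of unlike composition. The genes, their groups and the lists were chosen with earlier results of these data known. All members are named or counted. Other genes were drawn from the up to 4 with the highest mean level of a list, or were calls against its median. Not all of those up to 4 are named, for example ALAS2, VIM, TBR1, ATR and RAD21. Markers with 0 counts were also named, after their values were seen. Promoter motifs were planned and are not analysed here. Settings tried were pseudocounts of 0.1 and 5, no filter or one at 5 CPM, folds of 2 and 8, 3 other scalings, the highest row per gene and symbols alone. Leaving out rows found by synonym or gene number, and the row named MKI67, was chosen after seeing the data.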

Additional observations from a re-analysis of the deposited data

How the results depend on the processing

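The sign of each median held under the settings tried, except that the median of the 2 inhibitors was 0.065 with plain library size. The counts of calls held less well. Licensing had 3 genes called higher in liver with TMM, but 0 with plain library size or without the 50 highest genes. Of 155 other pathway genes, 9 were called higher in liver with plain library size, near the 6.03% of all genes. The number of the 40 genes called higher in liver was 8 with a pseudocount of 5, 6 with plain library size and 5 at 8-fold. The number called higher in brain was 1 with a pseudocount of 0.1, with plain library size or at 2-fold. With a pseudocount of 0.1, medians were -2.39 over the 40 genes (-2.41 relative to all genes), -2.23 for licensing, -3.02 for mitosis and -1.22 for inhibitors, and mitosis minus synthesis was -1.43. With a pseudocount of 5 they were -1.32 (-1.33 relative to all genes), -1.57 for licensing, -1.11 for synthesis, -1.52 for mitosis, -0.85 for G1 genes and -0.35 for inhibitors, and mitosis minus synthesis was -0.41. With plain library size they were -1.11, -1.04 for licensing, -0.47 for synthesis, -1.67 for mitosis and -0.55 for G1 genes. Without the 50 highest genes they were -1.67, -1.57 for licensing, -1.10 for synthesis and -0.49 for inhibitors. With symbols alone the median of G1 genes was -0.079, since CDK2 and CCND1 then have no row.

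The share of all genes called was computed only at 4-fold with the main settings and with plain library size. The other counts in this section, also those of the 40 genes, have no such share beside them. Of the other pathway genes, 13 were called higher in liver with a pseudocount of 5, 9 with plain library size, 20 with symbols alone, 76 at 2-fold and 6 at 8-fold. Those called higher in brain were 0 with a pseudocount of 5, 4 with plain library size, 2 without the 50 highest genes, 2 with symbols alone, 5 at 2-fold and 0 at 8-fold. Their median was -0.63 with a pseudocount of 5, -0.081 with plain library size, and -0.61 if the 50 highest genes were left out. Where a setting moved a value, the cause was not tested. No paired analysis was possible because each tissue has 1 library, and for the same reason none could be left out. Low brain counts, such as the 12 of BUB1 and the 14 of POLE, limit the precision of those folds.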

Other observations

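Related genes were set side by side, as values only. The log2 ratio of TOP2A minus that of TOP2B, the topoisomerase that resting cells also use, was -4.04. For RRM2 minus RRM2B, the subunit induced by p53, it was -3.62, with RRM2B itself, chosen after its value was seen, at -0.65, or at 0.19 by plain library size. The difference was -5.24 for CDK1 minus CDK5, and -2.99 for CDK4 minus CDK6, which was also chosen after its value was seen and lay at 1.23, or at 2.19 by plain library size. For CDKN1A minus CDKN1B it was -2.99. The other pairs computed differed less, by -1.08 for CCND1 minus CCND3 (chosen after its value was seen, at 0.03), -1.05 for CDK1 minus CDK2, -0.66 for E2F1 minus E2F4 and -0.12 for CDC6 minus GMNN. Pairs given with the groups above, such as RRM2 minus RRM1, belong to the same 12. These differences use the same libraries and scaling, and each gene is a single row or sum of rows in 1 library per tissue.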
